A study of Rattus norvegicus with 18 samples.

Results

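RNA and m6A values were examined for 9 genes of the p53 network in rat H9c2 cells treated with a cardiotonic steroid: the p53 inhibitors Mdm2 and Mdm4, and the target genes Cdkn1a, Ccng1, Gadd45a, Btg2, Plk2, Plk3 and Sesn1. The genes were chosen by name, with earlier results of these data known, and all 9 were found among the 17455 genes of the expression tables. H9c2 is a myoblast line from rat heart, labelled wild type and myocardium. The 18 samples formed 6 groups of 3: control cells, cells treated with bufalin and cells treated with periplocin, each with an immunoprecipitated (IP) and an input library. Bufalin is a bufadienolide from toad venom without a sugar, and periplocin is a plant cardenolide that carries sugars. Both inhibit the Na/K-ATPase, the pump that exchanges sodium for potassium. The series title spells the second compound piperlopicin, and the sample labels give periplocin. Neither dose nor time is in the labels, so it is unknown whether the compounds were matched in either. Nothing labels the replicates as separate cultures, and p-values measure the spread between these samples, which may be technical. The question of the study was whether methylation of mRNA at adenosine (N6-methyladenosine, m6A) plays a role in their toxicity to heart cells.

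The transcription factor p53 is kept scarce by Mdm2, a ubiquitin ligase that marks it for destruction, and inactive by Mdm4, which binds its activation domain. After DNA damage or other stress p53 is released and raises the RNA of target genes that stop the cell cycle, repair DNA or start cell death. Mdm2 is itself a target, which closes a negative feedback loop. Several targets, among them Plk2, Plk3, Btg2 and Gadd45a, are also known to respond within minutes to hours to growth factors and stress without p53. In heart muscle p53 is known for its part in cell death after injury and after anthracyclines.

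The files analysed hold the authors' comparisons, with no columns for single libraries, whose values and depth were not analysed here. Each gene value below is a mean normalized count fitted for a group of 3 libraries, or the log2 fold change of treated over control with the standard error (SE) that DESeq2 gave it. Whether input or IP libraries were fitted is not stated. The median level of the tested genes was 663 (bufalin comparison) and 640 (periplocin comparison) normalized counts. Of 11 muscle markers, 5 reached 10 normalized counts in control cells, among them Tnnt2 at 4549, the highest, Des at 1002 and Myod1 at 672. Mef2c had no value, while Myf5, Myf6, Pax7 and Actc1 were listed at 0. All 8 smooth muscle and fibroblast markers reached that level, against 1 of 4 epithelial, 2 of 5 leukocyte and 2 of 5 endothelial ones. The highest of these were Krt8 (epithelial) at 1057, Vwf (endothelial) at 286 and Cd68 (leukocyte) at 65.6, while Pecam1, Cdh5, Ptprc and Itgam stood between 0.159 and 5.09 and Epcam, Cdh1 and Krt18 were listed at 0. The summed muscle markers went from 6311 in control to 5969 with bufalin, and from 6115 to 6467 with periplocin in the other table. In the same order the summed leukocyte markers went from 98.8 to 127 and from 95.7 to 115, the endothelial ones from 312 to 277 and from 303 to 273, the epithelial ones from 1057 to 1143 and from 1024 to 1110, and the smooth muscle and fibroblast ones from 524315 to 559218 and from 508015 to 507338. The part of such shifts in the results was not tested.

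Of the 9 genes, Mdm2 and Plk3 rose with periplocin, and none was called with bufalin. Called means an adjusted p under 0.05 in the authors' deposited table (DESeq2's Wald p, adjusted by Benjamini-Hochberg over the genes the authors kept). In the periplocin comparison 2 of the 9 genes were called, both higher, where 0.538% of 12445 genes were called in either direction and 0.514% were called higher. In the bufalin comparison 0 of the 6 genes that had an adjusted p were called, where 0.301% of 3321 genes were. At an unadjusted p under 0.05 the counts were 0 of 9 with bufalin and 4 of 9 with periplocin, and over all genes the shares were 5.0% and 6.25%. The 4 genes were Mdm2, Plk3, Plk2 and Btg2, all with more RNA after periplocin. As the 9 genes were chosen with earlier results known, the shares over all genes describe the set and do not test it. Since these are bulk samples, fewer cells of a type and less RNA per cell cannot be told apart.

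Mdm2 had a fitted mean of 9885 normalized counts in control and 12682 in periplocin-treated cells. This is a 1.28-fold rise (95% Wald interval 1.17 to 1.41), with a log2 change of 0.36 ± 0.07 (SE, n = 3 per group) and an adjusted p of 0.000107 by DESeq2 in the authors' deposited table. By p-value Mdm2 ranked at place 21 among 12906 genes with periplocin. With bufalin its fitted mean was 10203 in control and 11692 in treated cells. That ratio was 1.15-fold with an interval of 0.876 to 1.50, a log2 change of 0.20 ± 0.20 (SE) and an adjusted p of 0.784 by DESeq2 in the authors' deposited table. The point estimate with bufalin was thus positive, but its interval held both no change and the change seen with periplocin.

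Mdm4, the partner and relative of Mdm2, was not called with either compound. Its fitted mean went from 4716 to 5336 normalized counts with bufalin, a log2 change of 0.18 ± 0.12 (SE) in the authors' deposited table. With periplocin it went from 4569 to 4938, a log2 change of 0.11 ± 0.08 (SE) in the authors' deposited table. The interval of its fold change ended at 1.33 with bufalin and at 1.21 with periplocin. Whether Mdm2 and Mdm4 differed from each other in their response was not tested.

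Among the genes that halt the cell cycle, Cdkn1a encodes the inhibitor of cyclin-dependent kinases that is the best known p53 target. Its fitted mean was 1822 in control and 1842 with bufalin, and 1766 in control and 1822 with periplocin. The log2 changes in the authors' deposited table were 0.01 ± 0.10 (SE) with bufalin and 0.05 ± 0.08 with periplocin. The fold intervals were narrow, from 0.884 to 1.16 and from 0.928 to 1.15, so a rise of Cdkn1a as large as the fitted rise of Mdm2 with periplocin lay outside both.

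Ccng1 encodes cyclin G1, which guides a phosphatase to Mdm2 and is a long-known p53 target. With bufalin it went from 12375 to 12312 normalized counts, at 0.995-fold (interval 0.892 to 1.11). With periplocin it went from 11989 to 11104, at 0.926-fold (interval 0.853 to 1.01), with an unadjusted p of 0.0673 and an adjusted p of 0.797 by DESeq2 in the authors' deposited table. Neither passed, and the upper end of the periplocin interval stayed close to the control level.

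Gadd45a, a stress sensor that binds the replication clamp and activates stress kinases, went from 10790 to 13030 normalized counts with bufalin and from 10454 to 11968 with periplocin. The fold changes were 1.21 (interval 0.830 to 1.76) and 1.14 (interval 0.911 to 1.44). Of the 9 genes Gadd45a had the highest point estimate with bufalin, at a log2 change of 0.27 ± 0.28 (SE) in the authors' deposited table, and also the widest error there. Btg2, an antiproliferative protein that recruits the deadenylase of mRNA, went from 6256 to 5527 with bufalin and from 6062 to 8394 with periplocin. In the authors' deposited table its log2 change was -0.18 ± 0.22 (SE) with bufalin and 0.47 ± 0.24 with periplocin. The periplocin value had an unadjusted p of 0.0459 and an adjusted p of 0.749 by DESeq2 in the authors' deposited table, so it was not called.

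The polo-like kinases Plk2 and Plk3 take part in the stress response and, for Plk2, in the copying of centrioles. Plk3 went from 941 to 1366 normalized counts with periplocin, a 1.45-fold rise (interval 1.22 to 1.73). Its log2 change was 0.54 ± 0.13 (SE) with an adjusted p of 0.00686 by DESeq2 in the authors' deposited table, at place 42 of 12906 genes by p-value. With bufalin Plk3 went from 971 to 937, at 0.965-fold (interval 0.757 to 1.23), and it had no adjusted p in that table.

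Plk2 had the larger point estimate but missed the threshold. It went from 10161 to 15585 normalized counts with periplocin, at 1.53-fold (interval 1.14 to 2.07), with an unadjusted p of 0.00498 and an adjusted p of 0.301 by DESeq2 in the authors' deposited table. With bufalin it went from 10486 to 11856, at 1.13-fold (interval 0.842 to 1.52). The intervals of Plk2 and Plk3 with periplocin overlapped over most of their length, so the order of these kinases is not set by the data.

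Sesn1 encodes a sestrin, which restrains the growth kinase mTORC1 when amino acids or energy are short. It went from 584 to 536 normalized counts with bufalin and from 566 to 508 with periplocin. The fold changes were 0.917 (interval 0.752 to 1.12) and 0.898 (interval 0.744 to 1.08), neither of them called.

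**Figure D1:**
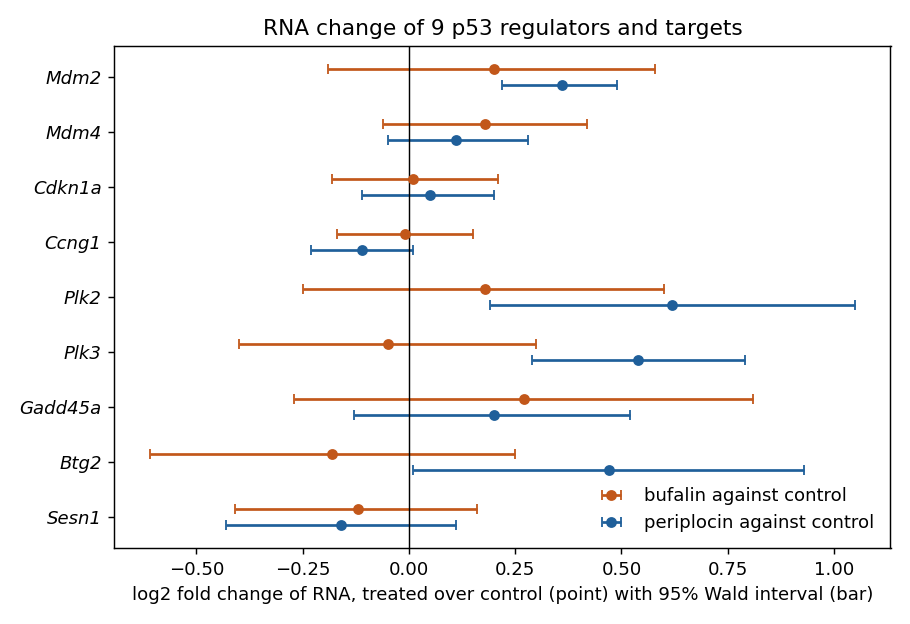
Log2 fold change of RNA (horizontal axis) for each of the 9 genes (vertical axis), with bufalin in orange and periplocin in blue; points are the authors' estimates from 3 against 3 libraries and bars are 95% Wald intervals. The bars of Mdm2, Plk3, Plk2 and Btg2 with periplocin lie above 0, Mdm2 and Plk3 being the called genes, and all 9 bufalin bars cross 0.

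The errors were wider than counting alone would give. An error from counting alone would be 0.011 (SE, log2) for Plk2 and Gadd45a in both tables. The SE of the authors' deposited table was 0.22 for Plk2 with either compound, and 0.28 with bufalin and 0.17 with periplocin for Gadd45a. Read as a spread between libraries, taken equal in the groups compared, the coefficient of variation of Plk2 was 18.4% (bufalin) and 18.6% (periplocin). For Btg2 it was 18.5% and 19.9%, and for Gadd45a 23.4% and 14.2%. Genes with a mean within 1.5 times that of Plk2 had a median of 5.13% and 3.96%, and 98.3% and 98.9% of them had a smaller SE than Plk2. The shares were 98.0% and 99.1% for Btg2 and 99.0% and 97.9% for Gadd45a. Wide errors were not limited to these 3 genes. For Plk3 the shares were 98.5% with bufalin and 94.8% with periplocin, for Mdm4 97.2% and 94.4%, and for Mdm2 98.1% and 92.2%. For these 6 of the 9 genes the SE was thus larger than that of at least 92.2% of genes of like level in both tables.

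Cdkn1a, Ccng1 and Sesn1 were nearer to their peers. Of genes with a like mean, 71.8% in the bufalin and 41.7% in the periplocin table had a smaller SE than Cdkn1a, and 61.6% and 57.6% a smaller SE than Sesn1. For Ccng1 the shares were 85.9% and 86.2%. Mdm2 stood apart between the tables: in the authors' deposited table its SE was 0.20 with bufalin and 0.07 with periplocin, although both used the same control libraries. Its coefficient of variation was 16.8% in the former and 5.77% in the latter comparison. The missed call of Mdm2 with bufalin came with this larger error. Since the controls are shared, the extra spread lies with the bufalin-treated libraries, and which of these carried it was not analysed here.

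**Figure D2:**
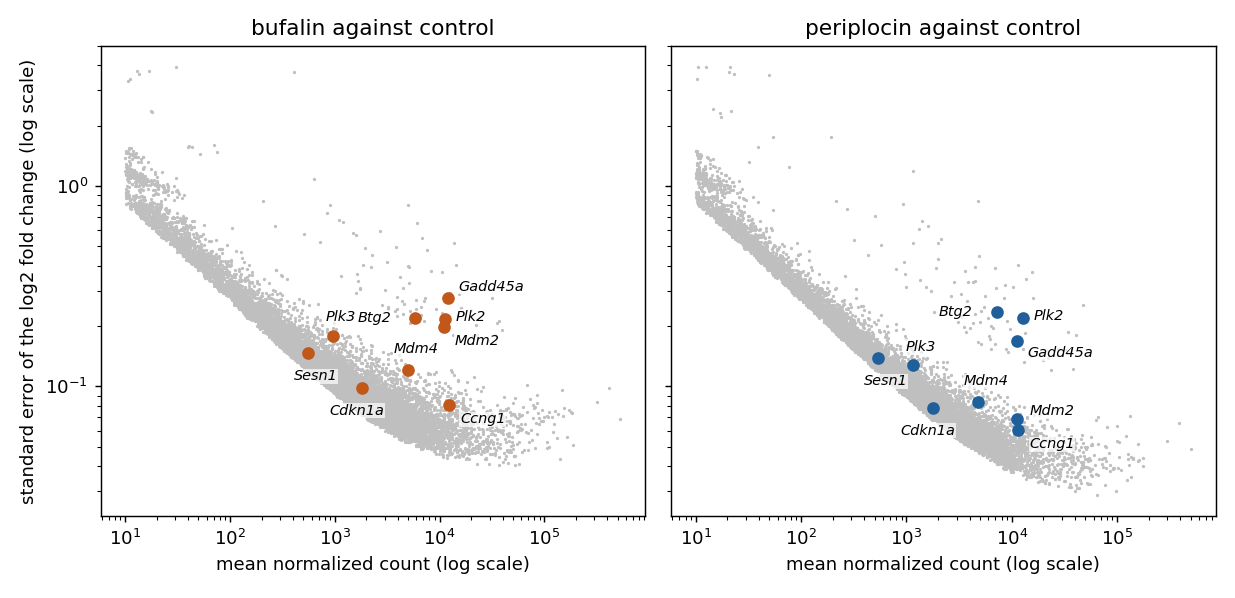
Standard error of the log2 fold change (vertical axis, log scale) against the mean normalized count (horizontal axis, log scale) for all genes with a mean of at least 10 (grey) and the 9 genes (coloured), in the bufalin and the periplocin comparison. Plk2, Btg2 and Gadd45a lie above the band of genes of like mean in both panels, and Mdm2 has an SE of 0.20 in the bufalin and 0.07 in the periplocin panel.

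The compounds were set against each other as 1 pair, through the controls they share. The difference of the log2 changes, bufalin minus periplocin, was tested in the 10602 genes that reached a mean of 10 in both tables, with an approximate Wald test whose SE was rebuilt from those of the authors and Benjamini-Hochberg adjustment. Plk3 was the 1 of 9 genes to pass, where 0.396% of all genes passed. Periplocin-treated cells held 1.50-fold as much Plk3 RNA as bufalin-treated cells (interval 1.22 to 1.86), a difference of -0.59 ± 0.16 (SE, log2) with an adjusted p of 0.0400. With an upper limit of the SE that ignores the shared controls, the interval was -1.02 to -0.16 and the adjusted Wald p 1.0. The call thus rests on the smaller SE, which takes the spread between libraries as equal in the groups of a comparison. For Plk3 the coefficient of variation was 14.9% in the bufalin and 10.4% in the periplocin comparison, with the same controls. Both values cannot be the spread of the same control libraries, so the equal spread cannot hold as set in both comparisons. How far treated and control libraries differed in spread was not tested.

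Btg2 had the largest point estimate of the difference, -0.65 ± 0.23 (SE, log2), interval -1.09 to -0.20, adjusted p 0.329 by the same Wald test. The difference for Plk2 was -0.44 ± 0.22 (SE, log2), interval -0.87 to -0.01, adjusted p 0.763 by this test. Neither gene passed, and neither was shown to respond alike to the compounds. For Mdm2 the intervals were -0.45 to 0.13 and, with the upper limit, -0.57 to 0.25.

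The smallest differences were those of Cdkn1a at -0.03 (interval -0.20 to 0.14) and Sesn1 at 0.03 (interval -0.25 to 0.31). Mdm4 stood at 0.07 (interval -0.14 to 0.27), Gadd45a at 0.08 (interval -0.37 to 0.53) and Ccng1 at 0.10 (interval -0.04 to 0.24). The interval was narrow for Cdkn1a and Ccng1, while that of Gadd45a leaves room for a large difference in either direction.

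**Figure D3:**
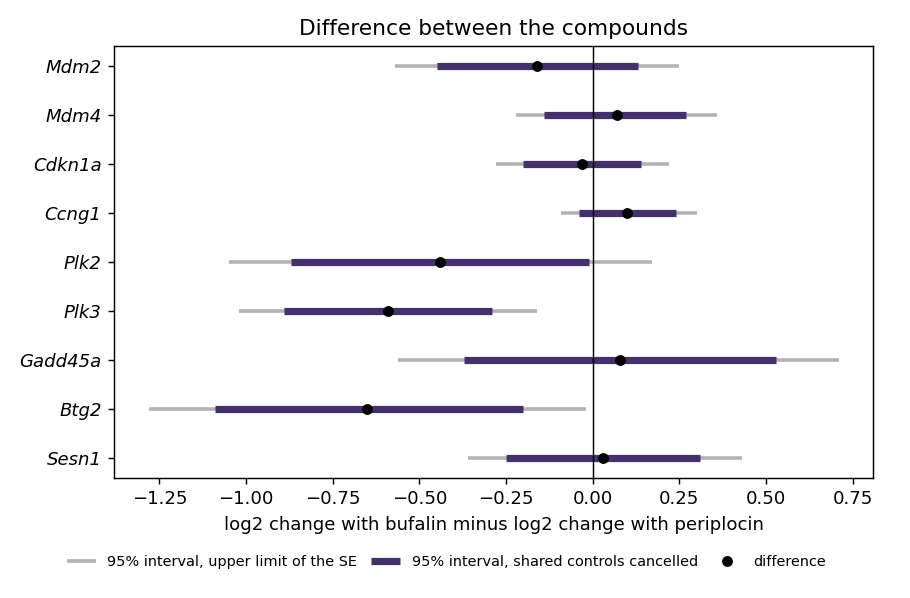
Log2 change with bufalin minus log2 change with periplocin (horizontal axis) for the 9 genes (vertical axis); points are differences, dark bars 95% intervals with the shared controls cancelled and grey bars intervals with the upper limit of the SE. Plk3 at -0.59 was the gene that passed, and the grey bar of Plk2 crosses 0 while its dark bar ends at -0.01.

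Promoters are shown so that the letters before called and uncalled genes can be read side by side. The window was the 250 bases before the annotated start of each gene, from RefSeq on build GRCr8, which holds all 9 genes. It was searched on both strands for the p53 half-site, whose pattern reads the same on both, and for the cyclic AMP response element (CRE) TGACGTCA, to which the CREB and ATF factors bind. Mdm2 (chr7:55200792-55201041, minus strand) and Plk3 (chr5:135848901-135849150, minus strand) were the genes called with periplocin, and neither holds a match to either motif. Near matches to the CRE, such as tgacgtaa in the Plk3 window, were not counted. The known p53 sites of Mdm2 lie in its first intron, outside this window.
Mdm2: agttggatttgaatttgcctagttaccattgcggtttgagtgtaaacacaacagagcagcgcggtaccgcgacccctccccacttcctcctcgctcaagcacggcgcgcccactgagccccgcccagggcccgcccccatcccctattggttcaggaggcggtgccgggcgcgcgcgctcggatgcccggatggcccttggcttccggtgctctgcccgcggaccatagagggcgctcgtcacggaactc
Plk3: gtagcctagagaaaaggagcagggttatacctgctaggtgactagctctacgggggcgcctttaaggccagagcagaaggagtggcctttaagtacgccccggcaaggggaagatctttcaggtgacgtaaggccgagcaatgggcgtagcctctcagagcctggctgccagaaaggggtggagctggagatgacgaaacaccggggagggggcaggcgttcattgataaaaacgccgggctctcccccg

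Plk2 (chr2:43702286-43702535, plus strand) and Btg2 (chr13:48087691-48087940, minus strand) each hold a CRE, shown in capitals. It starts 66 bases before the gene start in Plk2 and 201 bases before it in Btg2. Of 33469 RefSeq promoters, 1.59% hold this element in a window of that length. These are the 2 genes that passed an unadjusted p of 0.05 with periplocin without being called, and they have the wide errors described above. Gadd45a has wide errors too and holds no CRE in this window. A link between the element and these values was not tested.
Plk2: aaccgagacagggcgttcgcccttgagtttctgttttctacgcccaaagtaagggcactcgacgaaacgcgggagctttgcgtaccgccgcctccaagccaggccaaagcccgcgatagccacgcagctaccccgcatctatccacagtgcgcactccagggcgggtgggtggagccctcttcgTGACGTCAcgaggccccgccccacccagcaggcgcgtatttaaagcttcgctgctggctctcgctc
Btg2: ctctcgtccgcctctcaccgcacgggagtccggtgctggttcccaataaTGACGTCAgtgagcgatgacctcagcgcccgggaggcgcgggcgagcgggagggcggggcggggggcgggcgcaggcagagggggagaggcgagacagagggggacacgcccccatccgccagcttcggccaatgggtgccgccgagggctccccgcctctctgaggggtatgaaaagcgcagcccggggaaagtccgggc

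Cdkn1a (chr20:7150682-7150931, plus strand) and Ccng1 (chr10:25684877-25685126, minus strand) each hold a p53 half-site, in capitals, at 201 and 232 bases before the start. Near matches to the half-site, such as tgacttgttc directly after the match in Cdkn1a, were not counted.
Cdkn1a: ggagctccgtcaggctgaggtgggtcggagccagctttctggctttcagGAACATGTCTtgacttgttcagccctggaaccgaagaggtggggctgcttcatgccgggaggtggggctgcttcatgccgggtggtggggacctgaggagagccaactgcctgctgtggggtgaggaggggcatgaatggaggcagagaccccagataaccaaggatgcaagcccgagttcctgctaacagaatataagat
Ccng1: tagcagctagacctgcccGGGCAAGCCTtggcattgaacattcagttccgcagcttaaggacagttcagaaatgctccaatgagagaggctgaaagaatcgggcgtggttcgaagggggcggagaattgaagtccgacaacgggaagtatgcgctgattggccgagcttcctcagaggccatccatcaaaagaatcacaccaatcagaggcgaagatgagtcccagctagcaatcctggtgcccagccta

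Gadd45a and Sesn1 hold a half-site too, GGGCTAGCCC at 48 bases and AAGCTTGTTT at 172 bases before the start. A half-site was thus found in 4 of the 9 genes and in 6.64% of all promoters. None of the 4 was called, where 0.301% (bufalin) and 0.538% (periplocin) of genes with an adjusted p were. Cdkn1a and Sesn1 had no adjusted p with bufalin and could not be called there. A GC box (GGGCGG) was found in 7 of the 9 and in 30.5% of all promoters, a CCAAT box (CCAAT) in 5 of the 9 and in 34.0%. The AP-1 element TGACTCA (4.05% of promoters) and the TATA box TATAAA (12.9%) were found in 0 of the 9. The GC box and CCAAT matches do not overlap the half-sites or the CREs. A match describes letters only, and whether a factor binds there was not measured.

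The m6A mark was read from peaks, stretches of RNA enriched in the IP over the input library, called by the authors in 1 list per compound. Their fold enrichment was read as IP over input, which the column name does not state. Of the 9 genes, 8 carried a peak in both lists, with 15 peaks in the bufalin list and 14 in the periplocin list. Over all genes, 5122 carried a peak in the bufalin and 4879 in the periplocin list, beside 17455 genes in the expression tables. Of those genes 12876 (bufalin) and 12906 (periplocin) had a p-value. The 9 genes had mean normalized counts of at least 537, and the share with a peak among genes of like level was not computed. Plk3 had none in either, so its RNA rose without a called m6A peak. No change of these peaks was called: 0 of 15 and 0 of 14 passed a false discovery rate (FDR) of 0.05 for the change, where 0.0304% of 9866 and 0.0436% of 9170 peaks did. At an unadjusted p under 0.05 the counts were 0 and 1, against 3.04% and 3.37% of all peaks. The change of a peak is the authors' value, and since its direction is not stated it was read as treated over control.

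Mdm2 carried 3 peaks on the minus strand of chromosome 7 (build rn6). The middle one in the direction of transcription, chr7:60720542-60720837, was enriched 2.53-fold in the bufalin and 2.55-fold in the periplocin list, higher than 87.2% and 88.7% of the peaks there. A short peak downstream, chr7:60720345-60720444, was enriched 2.08-fold and 2.22-fold. The upstream one, with its ends at 60727058 and 60727912 in the bufalin list, was enriched 1.77-fold, and in the periplocin list it was joined from 4 blocks over 6716 bases and enriched 1.69-fold. Log2 changes of the 3 peaks ran from 0.04 to 0.06 with bufalin and from -0.05 to 0.05 with periplocin. The RNA of Mdm2 rose 1.28-fold with periplocin while its peaks, which are set against input, stayed within these values.

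Plk2 had 5 peaks in the bufalin list, the most of the 9 genes there, and 3 in the periplocin list, as many as Mdm2, where a gene with a peak had a median of 1. The last in the direction of transcription, chr2:41916159-41916604, was the strongest, enriched 2.99-fold and 3.04-fold. The 4 peaks before it in the bufalin list stood between 1.27-fold and 1.74-fold, and their log2 changes were -0.28, -0.20, -0.28 and -0.27. The strong one stood at 0.06. With periplocin the first peaks both stood at -0.19 and the last at 0.14. The smallest p of these changes was 0.0871 with bufalin and 0.0813 with periplocin, each with an FDR of 1.0.

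The single peak of Btg2, chr13:50914864-50915209, had the highest enrichment of all the members' peaks, 3.06-fold and 3.21-fold, above 96.4% and 97.7% of the lists. At the other end the single peak of Ccng1, chr10:25905673-25905773, was enriched 1.30-fold and 1.08-fold, above 7.46% and 0.142% of the lists. The log10 FDR of enrichment was -14.0 for Btg2 and -11.0 for Ccng1 in the bufalin list, so both peaks passed by a wide margin despite the gap in fold.

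Cdkn1a held 1 peak, chr20:6356508-6356606, enriched 1.74-fold and 1.72-fold. Mdm4 shared 1 peak between the lists, chr13:49793142-49793642, enriched 2.08-fold and 2.18-fold, and had a second one in the periplocin list only, at 1.37-fold. Gadd45a held 2 peaks, the upstream one at chr4:97784669-97784766. That peak gave the 1 unadjusted p under 0.05 in the set, a log2 change of 0.20 with periplocin (p = 0.0427, FDR 1.0, the authors' test of the change), and stood at 0.11 with bufalin. Sesn1 held 1 peak, whose log2 change was 0.45 with bufalin and -0.12 with periplocin, with p-values of 0.927 and 0.911 in the authors' peak lists.

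Between the lists, 13 of the 15 bufalin peaks shared at least 1 base with a periplocin peak, and 13 of the 14 periplocin peaks with a bufalin peak. Of these 13 pairs, 9 had identical ends, and in 11 the enrichments lay within 10% of each other. The exceptions were Ccng1 and Sesn1, whose enrichment in the bufalin list was up to 1.20 times that in the periplocin list. Both lists contain the control libraries, so likeness between them is partly shared data. The median enrichment was 1.96-fold and 2.14-fold for the members, against 1.82-fold and 1.81-fold for all peaks. Whether a peak lies in a coding part, an intron or near the stop codon was not analysed here, since no rn6 annotation was used.

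**Figure D4:**
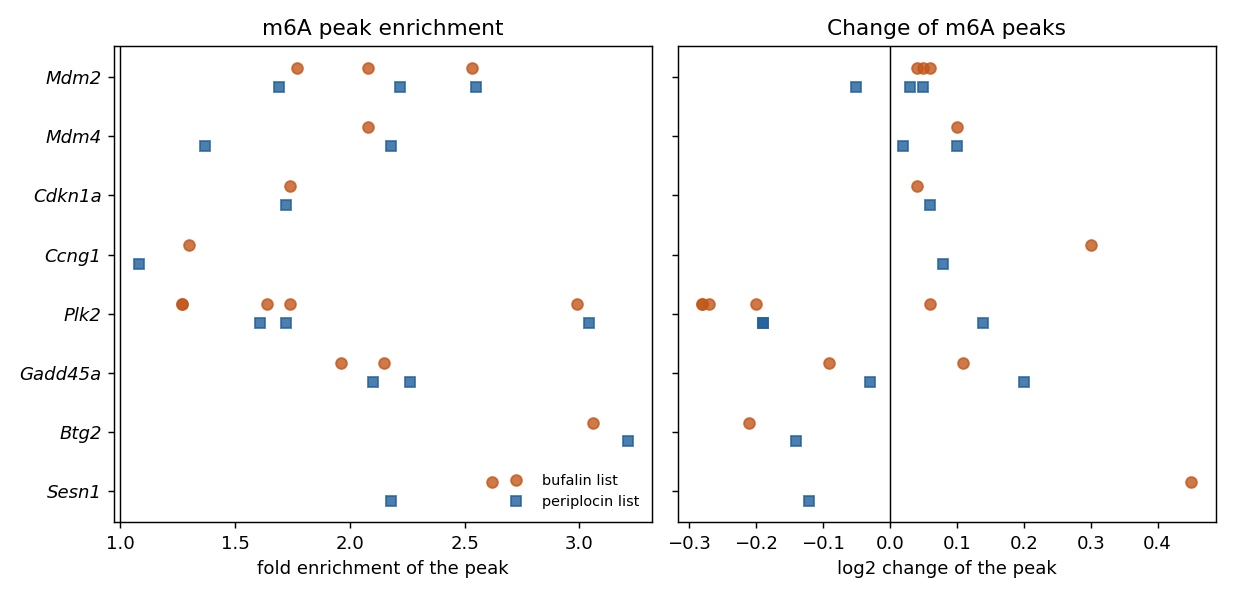
Fold enrichment (left panel, horizontal axis) and log2 change (right panel) of every m6A peak on the 8 genes that carry one (vertical axis), bufalin list as orange circles and periplocin list as blue squares, 1 point per peak. Enrichment ran from 1.08 in Ccng1 to 3.21 in Btg2 and lay close between the lists, and log2 changes ran from -0.28 to 0.45.

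The wider network gave few calls. Of 20 regulators and partners of p53, 18 were measured. Among the 7 with an adjusted p in the bufalin table and the 18 in the periplocin table, 0 were called by DESeq2, where 0.301% and 0.538% of all genes were. The medians of their log2 changes were 0.02 and 0.02, where that of all genes was 0.00 and 0.00 (bufalin and periplocin). At an unadjusted p under 0.05 there were 0 and 1 of the 18, where the shares of all genes were 5.0% and 6.25%. The largest values among well-measured partners were small: Rpl23, a ribosomal protein that can bind Mdm2, stood in the authors' deposited table at 0.14 ± 0.07 (SE, log2) with bufalin and 0.10 ± 0.05 with periplocin. Rpl5, which binds Mdm2 too, stood at 0.12 ± 0.07 and 0.03 ± 0.04 in the authors' deposited table. The acetyltransferase gene Kat5, the damage kinase gene Atm and the phosphatase gene Ppm1d, all regulators of p53, stood between -0.12 and 0.10 on the log2 scale in the authors' deposited table.

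Of 38 further p53 targets, 32 were listed and 30 had a p-value, Perp and Igfbp3 being listed at 0. With bufalin 9 of the 30 had an adjusted p and 0 were called by DESeq2 (0.301% of all genes), and with periplocin all 30 had one and 1 was called (0.538% of all genes). Epha2, an ephrin receptor kinase, rose 1.15-fold with periplocin (interval 1.07 to 1.23), with an adjusted p of 0.0181 by DESeq2 in the authors' deposited table. Sertad1, a regulator of cell cycle kinases, stood at 1.30-fold (interval 1.11 to 1.53) with an adjusted p of 0.120 by DESeq2 in the authors' deposited table. Sesn2, the relative of Sesn1, stood at 1.19-fold (interval 1.03 to 1.39) and Triap1, a survival factor, at 1.15-fold (interval 0.996 to 1.32), both with periplocin and not called. With bufalin Apaf1, the scaffold of the apoptosome, stood at 0.903-fold (interval 0.821 to 0.993) and the spindle gene Ckap2 at 1.12-fold (interval 0.964 to 1.30), not called either. The medians of the 30 targets were 0.02 with bufalin and 0.04 with periplocin, with 18 of 30 above 0 in each, where 50.4% and 50.5% of all genes were. Unadjusted p-values under 0.05 were found in 1 (3.33%) and 4 (13.3%) of the 30, against 5.0% and 6.25% of all genes.

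Of 11 relatives of the 9 genes, 10 had a p-value and Cdkn1c was listed at 0. Of the 6 relatives with an adjusted p in the bufalin table and the 10 in the periplocin table, 0 were called by DESeq2, beside 0.301% and 0.538% of all genes. An unadjusted p under 0.05 was found for 2 with bufalin and 0 with periplocin, beside 5.0% and 6.25% of all genes. In the authors' deposited table Gadd45g stood at -0.23 ± 0.11 (SE, log2) with bufalin and at 0.29 ± 0.22 with periplocin. The difference of -0.51 ± 0.17 between the compounds had an adjusted p of 0.270 by the Wald test. Gadd45b stood at 0.29 ± 0.14 and 0.14 ± 0.12 in the authors' deposited table. Ccng2 and Plk1 stood at 0.20 ± 0.13 and -0.19 ± 0.13 with bufalin in the authors' deposited table. Over the 10 relatives with a p-value the medians were -0.02 and -0.00, and those of the 9 genes themselves 0.01 and 0.20. Genes and lists were chosen with earlier results known, and whether the lists differed was not tested.

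**Figure D5:**
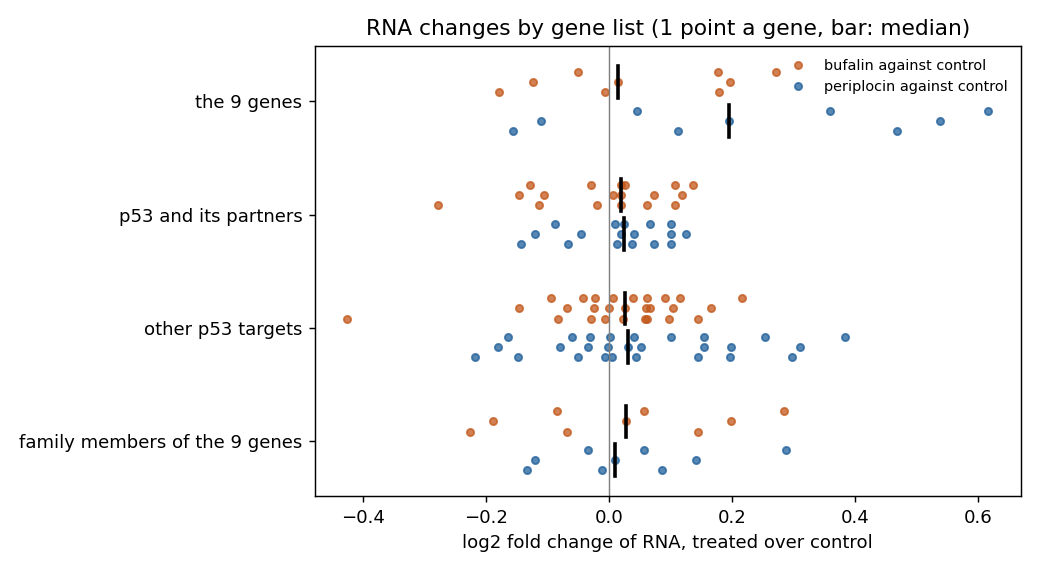
Log2 fold change of RNA (horizontal axis) for the genes of each list with a mean of at least 100 normalized counts (vertical axis), bufalin in orange and periplocin in blue, 1 point per gene and a black bar at the median of the plotted genes. The medians of the 3 wider lists lie between 0.01 and 0.03, and that of the 9 genes is 0.01 with bufalin and 0.20 with periplocin.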

How the data were processed

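MeRIP-seq libraries of 18 H9c2 samples were labelled by compound and library kind. The tools named in the submitters' processing notes are HISAT2, StringTie and DESeq, with build rn6; their versions and the caller of peaks: not given in the sources used here. Per the file headers, the expression tables are DESeq2 output: the signal is a mean of counts divided by size factors, beside log2 fold changes, SEs, a test score, p-values and adjusted p-values. In the deposited peak lists the fold enrichment is a ratio, and log10 values are logarithms of p and FDR, per the file headers.

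The direction treated over control followed from the control means, which coincided between the tables within 1% in all 10602 genes compared, after an offset of 0.05 (log2), with that reading and in at most 10.9% with any other. The score in the periplocin table has the opposite sign and was not used. Fitted group means follow from each gene's mean and fold change, with 3 libraries per group. An adjusted p was deposited for 3321 and 12445 genes; with bufalin only means of at least 2259 have one.

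For bufalin against periplocin each SE was split into counting noise and a remaining spread between libraries, set equal in the groups of a table, and the SE of the difference joins the parts of the treated groups. The planned test was kept, and its script was tested on simulated data. Named genes followed a rule: all 9, and from 3 lists every called gene and the 3 largest changes per table among genes with at least the median level; 1 further gene the rule names is not reported here. Genes and lists were chosen with earlier results of these data known. Genes not listed under their symbol were skipped. The rn6 genome was not used; promoters came from RefSeq (GRCr8), and proteins were not used here. Tools were Python 3.11.15 with scipy 1.17.1, pandas 2.3.3, numpy 2.4.6 and, for figures, matplotlib 3.10.9.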

Additional observations from a re-analysis of the deposited data

Results flagged for a closer look

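Plk3 is listed because its response differed between the compounds by the Wald test of the difference: the bufalin minus periplocin log2 change was -0.59, with 1.45-fold of control in periplocin-treated and 0.965-fold in bufalin-treated cells. The adjusted p was 0.0400 by that test and 1.0 with the upper limit of the SE. Samples far from their group could not be looked for, as no value per library was used.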

How the results depend on the processing

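The count of called members was 0 with bufalin and 2 with periplocin under every threshold and adjustment tried, and 0 of their m6A peaks were called in either list under each peak setting. Over all genes, an adjusted p of 0.1 gave 21 calls with bufalin in place of 10 and 101 with periplocin in place of 67, and an adjusted p of 0.01 gave 44 with periplocin. Between the compounds, the upper limit of the SE gave 0 called members in place of 1 (Plk3) and 8 genes in all in place of 42, by construction of a wider error. At an FDR of 0.01, 0 of all bufalin peaks were called in place of 3. Requiring 50% of the shorter peak kept 13 pairs, and extending the promoter window to 50 bases after the start, chosen after seeing the data, kept 4 genes with a p53 half-site. Of 120 values of single members under alternatives, 119 kept their side of the threshold and 1 (Plk3) lost it. An adjusted p of 0.01 was not tried between the compounds, where Plk3 stood at 0.0400 by the Wald test.

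No paired analysis was possible because the tables hold comparisons and no columns per library; for the same reason leaving out each replicate was not run. Depth per library is unknown.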
